A study of Mus musculus with 10 samples.

Results

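The negative feedback genes of the ERK pathway were followed in C2C12, a line of mouse myoblasts that is able to form myotubes. Members were the Sprouty genes Spry1, Spry2 and Spry4, the Spred genes Spred1 and Spred2, the phosphatase genes Dusp4, Dusp5 and Dusp6, and the transcription factor genes Etv4 and Etv5. They were found as every non-control probe whose gene name in the scanner files is one of these symbols. All 10 genes had a probe, 13 probes in all of the 55681 on the array, and 7 genes had a probe bright enough to be tested, of 13138 genes and transcripts tested. The 7 were Spry1, Spry2, Spred1, Dusp4, Dusp6, Etv4 and Etv5. Spry4, Spred2 and Dusp5 were too dim for a test.

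The cells had received 150 nM of a miR-27a-3p mimic, a synthetic RNA that supplies the mature microRNA, in 6 samples, or 150 nM of a scrambled sequence in 4 samples. They grew in high-glucose medium with serum and were transfected with Lipofectamine. Total RNA was taken 72 h later. Each difference below is the mimic group minus the scrambled group, and no cells without transfection were analysed here. The labels put the transfection efficiency at about 60%, so the RNA came from transfected and untransfected cells together, and all samples are of 1 cell line.

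ERK is the last kinase of a cascade that carries signals from growth factor receptors through RAS and RAF to the nucleus, and in myoblasts it is known for keeping cells dividing and holding back differentiation. ERK activity raises the transcription of its own inhibitors. Sprouty and Spred proteins act near the receptor and RAS, Dusp4, Dusp5 and Dusp6 remove the activating phosphates from ERK itself, and Etv4 and Etv5 are ETS-family factors of the PEA3 group that are switched on by FGF and ERK signals. RNA levels of these genes are often read as a record of ERK activity, which was not measured here. Spry2 is also a reported target of miR-27.

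The mature microRNA is shown because its seed, bases 2 to 8 in capitals, is what pairs with target transcripts, and its close relative miR-27b-3p is shown because both share that seed. Both sequences are from RefSeq (GRCm38.p6), where miR-27a-3p lies at chr8:84208727-84208747 and miR-27b-3p at chr13:63300760-63300780, both on the plus strand.
mmu-miR-27a-3p: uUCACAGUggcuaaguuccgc
mmu-miR-27b-3p: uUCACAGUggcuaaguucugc
The pair have 21 bases each and differ at 1 base, position 19 from the 5′ end, outside the seed. The letters that pair with the whole seed, ACTGTGA as sense DNA, were in 0 of the 13 member probes and in 0.817% of all 55681 probes. A probe covers a short piece of a transcript, so this says nothing of sites elsewhere in these genes.

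The 10 files came from 1 slide and held 2 scans of each of 5 array positions. Files of 1 position shared 21 to 75 non-uniform spots, against 0 in the 40 other pairs of files. Each position was taken as 1 array, with the mean of its scans as the value. This gave 3 mimic arrays (replicates 1 and 4, 2 and 5, 3 and 6) and 2 scrambled arrays (replicates 1 and 3, 2 and 4). The labels state independent transfections for every replicate, but the p-values cover only the spread among the 5 arrays, some of which may be technical. Of the 59305 non-control spots in a file, 27% to 35.3% were well above background, with a median intensity of 428 to 783 among them, and none was saturated. The scrambled arrays stood apart from each other, with an SD of log2 differences across genes of 0.56 against 0.32 to 0.44 between mimic arrays. By this measure scrambled array 1 was nearer to mimic arrays 1 (0.50) and 2 (0.54) than to scrambled array 2, and 0.61 from mimic array 3. Scrambled array 2 was 0.72 to 0.75 from the mimic arrays. For the members, results that rest on 1 of them are given with and without it, which is not done for most other genes. Levels are log2 intensities relative to the 75th percentile of the probes above background in all files, so 0 is a bright probe, and levels of different probes are not comparable. In bulk RNA, fewer cells of a type and less RNA per cell cannot be told apart.

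After the mimic, Etv4 was 2.07-fold higher, and no other tested member passed the adjusted p threshold of 0.05. With the scans of an array averaged, the Sprouty genes Spry1 and Spry2 were lower on every mimic array than on either scrambled array. The PEA3 genes Etv4 and Etv5 were higher on every mimic array. Spred1, Dusp4 and Dusp6 overlapped between the groups. By limma with Benjamini-Hochberg adjustment over all 13138 genes, 1 of the 7 tested members was called, beside 5.15% of all genes tested. It was higher, beside 2.80% of all genes called higher, and 0 were called lower, beside 2.34%. At an unadjusted p under 0.05 there were 4 of the 7, Spry1, Spry2, Etv4 and Etv5, beside 25.3% of all genes tested. The groups did not overlap for the same 4, 2 lower and 2 higher, beside 45.6% of all genes tested (25.8% lower and 19.8% higher). Of these 4, Spry2 reached the 4 files needed for a test mainly through the scrambled group, where it is higher. It was above background in 3 of 4 scrambled files and 1 of 6 mimic files, so its place in these counts is no support. The members' median difference was -0.05, as was the median of all genes (-0.05), with 3 differences above 0 and 4 below.

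**Figure D1:**
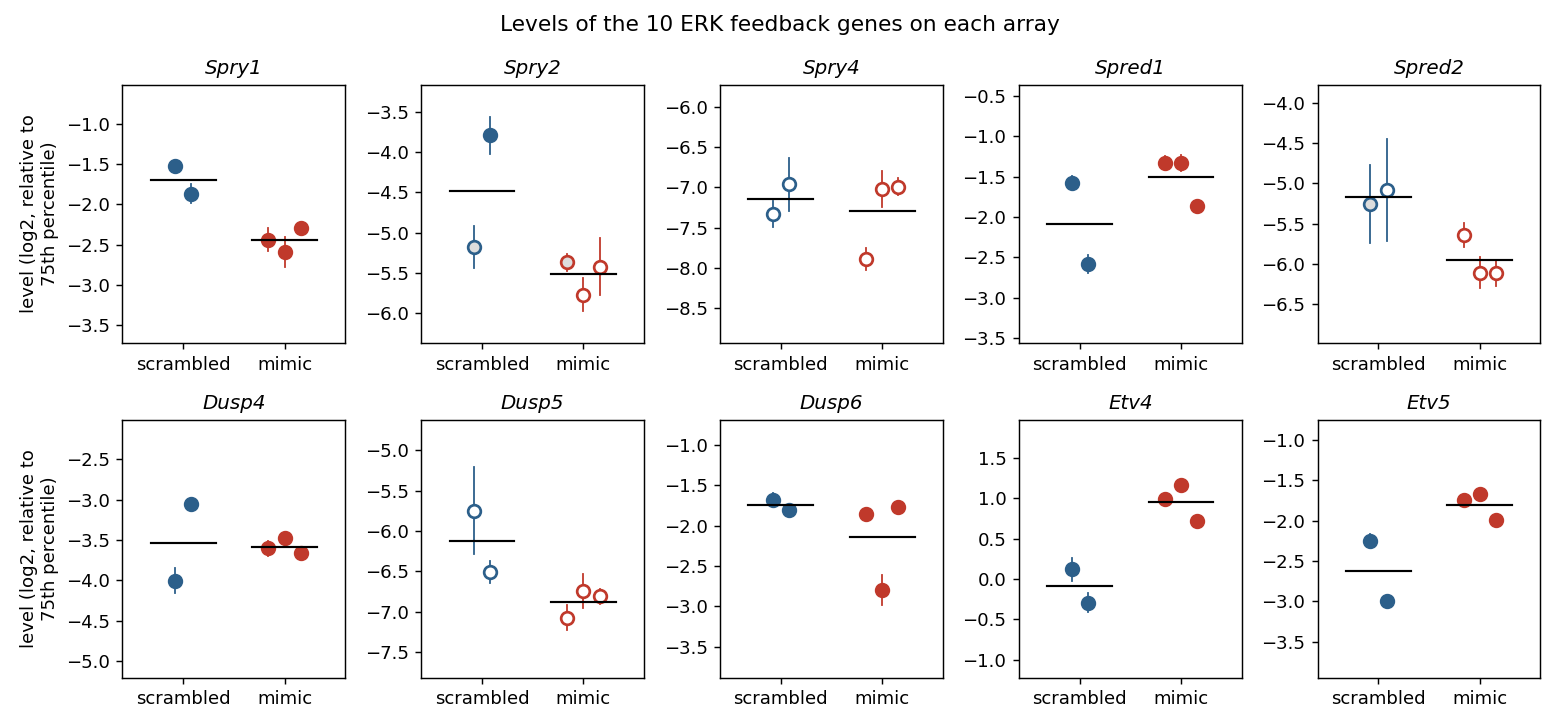
Levels of the 10 genes on each array, as log2 intensity with the 75th percentile of detected probes at 0. Each panel has the 2 scrambled arrays on the left and the 3 mimic arrays on the right, a thin vertical line joins the 2 scans of an array, a black line is the group mean, and a filled point was above background in both scans, a grey one in 1 and a white one in none. Spry1 and Spry2 lie lower and Etv4 and Etv5 higher on all 3 mimic arrays, while Spry4 and Dusp5 are white throughout.

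Sprouty proteins block the step from receptor to RAS. Spry1 (probe on chromosome 3, mm9 37543403 to 37543462) had levels of -1.53 and -1.87 on scrambled arrays 1 and 2. On mimic arrays 1, 2 and 3 its levels were -2.44, -2.59 and -2.30. Every mimic array was lower than both scrambled arrays, and all 10 files were well above background. The group means were -1.70 ± 0.24 (SD, n = 2) and -2.44 ± 0.15 (SD, n = 3). The difference was -0.74 (SE 0.18, 95% interval -1.17 to -0.31), or 1.67-fold, with a limma adjusted p = 0.0715, just outside the threshold. It was -0.72 in the first scan and -0.77 in the second. Another fit, called the scan block here, had a block for the scan and a random block for the position. With it the difference of -0.74 was called (limma adjusted p = 0.0252). The scan block counts its degrees of freedom over all 10 files, which include repeat scans of the same arrays. Its calls, here and below, are therefore no added support.

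Spry2, the reported miR-27 target, was close to background after the mimic. Its probe (chromosome 14, mm9 106291845 to 106291904) was well above background in 3 of 4 scrambled files and in 1 of 6 mimic files, with processed intensities of 39.2 to 162 over all files. The levels were -5.18 and -3.79 on scrambled arrays 1 and 2. They were -5.37, -5.77 and -5.42 on the mimic arrays. With the 2 scans averaged the groups did not overlap, but scrambled array 1 lay nearer to the mimic arrays than to scrambled array 2. In the first scan alone the groups overlapped, with scrambled array 1 at -5.44 and mimic array 1 at -5.26. The group means were -4.49 ± 0.98 (SD, n = 2) and -5.52 ± 0.22 (SD, n = 3), a difference of -1.03 (SE 0.41, 95% interval -2.03 to -0.04). With normexp, another correction of the spot background, it was -0.54 (limma adjusted p = 0.168). It did not pass the threshold (limma adjusted p = 0.186), and the scans taken alone gave -0.94 and -1.13. Without scrambled array 1 the difference was -1.73 (limma adjusted p = 0.0145), and without scrambled array 2 it was -0.34 (limma adjusted p = 0.394), so its size rests on scrambled array 2. Spry4, which acts like Spry2 on the same step, was not above background in any file, with processed intensities of 12.1 to 24.6. Its levels were -7.33 and -6.96 on the scrambled arrays and -7.89, -7.02 and -6.99 on the mimic arrays, which overlap, and no fold is given.

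Spred proteins hold the RAS inhibitor neurofibromin at the membrane. Spred1 had 3 probes on chromosome 2. The brightest (mm9 117005906 to 117005965) was at -1.58 and -2.59 on the scrambled arrays and at -1.34, -1.33 and -1.86 on the mimic arrays. Mimic array 3 lay below scrambled array 1, so the groups overlapped. The difference was 0.57 (SE 0.34, 95% interval -0.25 to 1.40), with a limma adjusted p = 0.325. Without scrambled array 1 it was 1.08 (limma adjusted p = 0.0423), and without scrambled array 2 it was 0.07 (limma adjusted p = 0.898).

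The second Spred1 probe (mm9 117004952 to 117005011), above background in all 10 files, was at -3.98 and -3.72 on the scrambled arrays and at -4.23, -3.88 and -3.90 on the mimic arrays. Its difference was -0.15 (SE 0.18, 95% interval -0.60 to 0.29), opposite in sign to that of the brightest probe. The third probe (mm9 116998491 to 116998550) was above background in no file, so Spred1 has no direction that its probes share. Spred2, the other member of the family measured, was well above background in 1 of the 4 scrambled files and in no mimic file (chromosome 11, mm9 19922416 to 19922475). Its levels were -5.26 and -5.08 on the scrambled arrays and -5.64, -6.11 and -6.12 on the mimic arrays. The mimic arrays were lower, but the level of the dimmest detected probes lay above the scrambled mean, so neither a fold nor a test is given.

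The Dusp genes encode dual-specificity phosphatases, Dusp4 and Dusp5 in the nucleus and Dusp6 in the cytoplasm. Dusp4 (chromosome 8, mm9 35882045 to 35882104) was at -4.00 and -3.06 on the scrambled arrays. Its levels were -3.60, -3.47 and -3.66 on the mimic arrays, between the scrambled values. The difference was -0.05 (SE 0.29, 95% interval -0.75 to 0.65; limma adjusted p = 0.926), and its sign turned with the scaling, to 0.11 with the percentile over all probes. Without scrambled array 1 the difference was -0.52 (limma adjusted p = 0.0455) and without scrambled array 2 it was 0.42 (limma adjusted p = 0.164), so these arrays give no direction for Dusp4. Dusp6 (chromosome 10, mm9 98729985 to 98730044) was at -1.68 and -1.80 on the scrambled arrays and at -1.85, -2.79 and -1.77 on the mimic arrays. Mimic array 2 was the low one, and the others were near the scrambled level. The difference was -0.40 (SE 0.33, 95% interval -1.21 to 0.41; limma adjusted p = 0.470), and without mimic array 2 it was -0.07. Dusp5 (chromosome 19, mm9 53615682 to 53615741) was above background in no file, with levels of -5.74 and -6.50 on the scrambled arrays and -7.08, -6.75 and -6.81 on the mimic arrays.

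The PEA3 factors Etv4 and Etv5 activate genes downstream of FGF receptors. Etv4 was represented by a probe on chromosome 11 (mm9 101631057 to 101631116, minus strand) with processed intensities of 1646 to 6200. Its levels were 0.12 and -0.30 on scrambled arrays 1 and 2 and 0.99, 1.16 and 0.72 on mimic arrays 1, 2 and 3. Every mimic array was higher than both scrambled arrays. The means were -0.09 ± 0.29 (SD, n = 2) and 0.96 ± 0.22 (SD, n = 3), a difference of 1.05 (SE 0.21, 95% interval 0.54 to 1.55), with a limma adjusted p = 0.0475. It was 1.14 in the first scan (limma adjusted p = 0.0459) and 0.96 in the second (limma adjusted p = 0.0694), and with the scan block it was called (adjusted p = 0.00855). The call was lost without mimic array 1, 2 or 3 (limma adjusted p = 0.196, 0.163 and 0.0947) or without scrambled array 2 (difference 0.84, limma adjusted p = 0.114), and it was kept without scrambled array 1 (1.25, limma adjusted p = 0.0199).

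A second Etv4 probe nearby (mm9 101631322 to 101631381), dimmer at intensities of 206 to 433, gave a smaller value. It was at -3.57 and -2.46 on the scrambled arrays and at -2.93, -2.90 and -2.80 on the mimic arrays, all between the scrambled values. Its difference was 0.14 (SE 0.33, 95% interval -0.66 to 0.94; limma adjusted p = 0.805 with every probe tested). In that fit, which called 4.58% of its 16722 probes (2.19% lower and 2.39% higher), the first Etv4 probe had an adjusted p = 0.0524. The difference between the probes was not tested.

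Etv5 lay on the same side as Etv4 but was not called. Its probe (chromosome 16, mm9 22381387 to 22381446, minus strand) was at -2.25 and -2.99 on the scrambled arrays and at -1.75, -1.67 and -2.00 on the mimic arrays. The groups did not overlap, with means of -2.62 ± 0.52 (SD, n = 2) and -1.81 ± 0.17 (SD, n = 3). The difference was 0.82 (SE 0.25, 95% interval 0.20 to 1.43; limma adjusted p = 0.122), or 1.76-fold, and 0.73 and 0.90 in the scans taken alone. With the scan block the same 0.82 was called (limma adjusted p = 0.0418). Without scrambled array 1 it was 1.19 (limma adjusted p = 0.0167), and without scrambled array 2 it was 0.45 (limma adjusted p = 0.227).

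**Figure D2:**
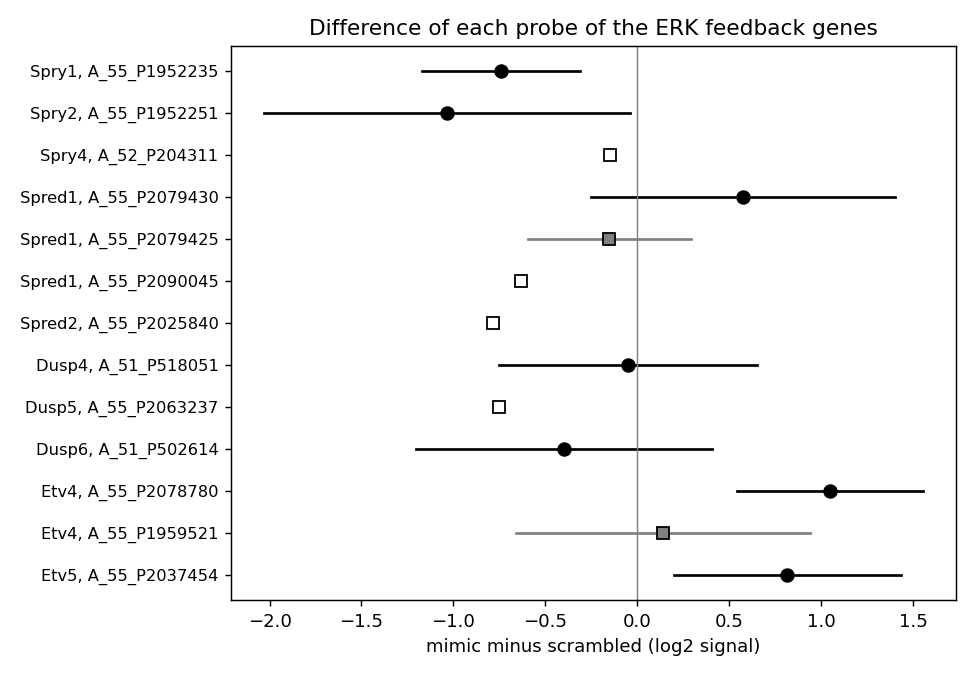
Mimic minus scrambled difference in log2 intensity for the 13 probes. Black circles are the probes that represent a gene, with 95% intervals from the fit over genes, grey squares are second probes with intervals from the fit over every probe, and white squares are probes too dim to be tested. The intervals of Spry1, Spry2, Etv4 and Etv5 leave out 0, while the second probes of Etv4 (0.14) and Spred1 (-0.15) lie near it.

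The sequences before the 2 listed starts of Etv5 are shown because the PEA3 factors, Etv5 included, bind the ETS core, and Etv5 is the member nearest to the called gene in family and in direction. They cover chr16:22439571-22439820 (upstream start) and chr16:22438369-22438618 (downstream start) on the minus strand of GRCm38.p6 (RefSeq), 5′ to 3′, with GGAAGT in capitals. The downstream stretch holds that core once and the upstream one does not hold it.
Etv5 upstream start: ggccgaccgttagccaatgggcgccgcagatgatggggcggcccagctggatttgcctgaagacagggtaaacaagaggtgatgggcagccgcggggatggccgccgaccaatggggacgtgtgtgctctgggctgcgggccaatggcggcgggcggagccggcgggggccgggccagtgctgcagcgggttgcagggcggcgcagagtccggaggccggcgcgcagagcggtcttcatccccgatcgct
Etv5 downstream start: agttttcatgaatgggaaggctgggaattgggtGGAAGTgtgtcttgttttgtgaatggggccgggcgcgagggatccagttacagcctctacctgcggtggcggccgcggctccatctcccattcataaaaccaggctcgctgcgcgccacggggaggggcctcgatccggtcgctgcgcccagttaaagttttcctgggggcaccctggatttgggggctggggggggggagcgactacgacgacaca
Of the 10 members, 7 were in the RefSeq promoter table, with 8 starts, and Spry4, Dusp4 and Etv4 were not. Over the 250 bases before each start, searched on both strands, GGAAGT was in 3 of these 8 (1 each of Spred2, Dusp5 and Etv5) and in 19.74% of 32851 promoters. A second ETS core, CCGGAA, was in 0 of 8 and in 12.03%. The AP-1 motif TGANTCA was in 0 of 8 and in 6.749%. The E-box CANNTG, the motif that Myod1 binds, was in 4 of 8 (those of Spry1, Spry2 and Dusp6 and the upstream one of Etv5) and in 66.22%. These are matches of letters in a window, not sites shown to be bound.

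The rest of the pathway was described with 5 lists of 129 genes in all, of which 96 were tested. The lists were chosen with earlier results of these data known, so their called shares, here and below, are no test of the pathway. In these lists 7 genes rose and 7 fell (14.6% called, beside 5.15% of all genes), with a median difference of -0.00. Among 12 other feedback genes and relatives, 9 were tested, 0 rose and 1 fell, with a median of -0.20. The 1 was Dusp2, an inducible nuclear phosphatase of ERK, which fell by 2.06 on the log2 scale (SE 0.18, limma adjusted p = 0.0077). Its levels were -2.31 and -2.12 on the scrambled arrays and -4.02, -4.36 and -4.45 on the mimic arrays, where 4 of 6 files were above background. This was a larger difference than that of any tested member, and it kept its sign in every alternative that tested it. With normexp it was -1.45 (limma adjusted p = 0.0055), and with no filter on dim probes it was not called (limma adjusted p = 0.0819). Dusp1, an early phosphatase of the MAP kinases, differed by 0.04 (limma adjusted p = 0.871), and Etv1, the remaining PEA3 factor, by -0.16 (limma adjusted p = 0.594).

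Of 39 genes of the cascade itself, from adaptors through RAS and RAF to ERK, 32 were tested and 0 were called by limma, with 6 of 32 at an unadjusted p under 0.05, beside 25.3% of all genes. With the scan block 1 was higher and 1 lower. Their differences ran from -0.77 to 0.71 with a median of -0.14. The smallest adjusted p was that of Frs2, the adaptor of FGF receptors, at 0.71 (SE 0.17, limma adjusted p = 0.0743; 0.0123 with the scan block). Without scrambled array 1 Frs2 stood at 0.88, and without scrambled array 2 at 0.53. Mapk3, which encodes the kinase ERK1, differed by -0.37 (limma adjusted p = 0.479). Its levels were -1.13 and -0.07 on the scrambled arrays. On the mimic arrays they were -1.03, -0.98 and -0.90, all between the scrambled values.

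Of 32 genes listed as ERK outputs, 27 were tested, 3 rose and 0 fell (11.1% called, beside 5.15% of all genes). Their median difference was 0.12. At an unadjusted p under 0.05 there were 12 of 27, beside 25.3% of all genes. With the scan block 5 were called higher and 2 lower. Areg, a ligand of the EGF receptor, rose by 1.92 (SE 0.16, limma adjusted p = 0.0058) from a level at which 1 of 4 scrambled files was above background. With normexp Areg stood at 1.01, and with the scan block it was not called (limma adjusted p = 0.0582). Ccnd1, the cyclin that drives entry into the cell cycle, rose by 1.14 (SE 0.18, limma adjusted p = 0.0276). The early gene Egr1 stood at -0.61 (SE 0.15, limma adjusted p = 0.0739).

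Upstream, 16 of 24 growth factor ligands were tested, 4 rose and 3 fell (43.8% called, beside 5.15% of all genes). Their median difference was 0.43, and with the scan block 5 were called higher and 3 lower. Gdnf, a ligand of the Ret receptor, rose by 1.90 (SE 0.25, limma adjusted p = 0.0169) from a level at which 2 of 4 scrambled files were above background, and stood at 1.11 with normexp. Igf2, a growth factor of differentiating muscle, fell by 2.67 (SE 0.34, limma adjusted p = 0.0163), with 2 of 6 mimic files above background, and stood at -1.65 with normexp. Fgf21, an endocrine FGF, fell by 2.30 (SE 0.13, limma adjusted p = 0.0031). Singled out after their values were seen, the other called ligands were Bdnf, Kitl and Pdgfa (higher) and Hgf (lower). Only 1 of 6 mimic files was above background for Hgf, against 4 of 4 scrambled files.

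Of 22 receptors and co-receptors, 12 were tested, 0 rose and 3 fell (25% called, beside 5.15% of all genes). Their median difference was -0.53, and with the scan block 1 was called higher and 2 lower. Pdgfrb, the receptor for PDGF-B, fell by 1.14 (SE 0.13, limma adjusted p = 0.0122). Fgfr4, an FGF receptor of myoblasts, fell by 0.74 (SE 0.14, limma adjusted p = 0.0404), with 4 of 6 mimic files above background. The Fgfr4 call was lost in either scan alone (limma adjusted p = 0.0505 and 0.0521), with the percentile over all probes (0.0703), quantile normalization (0.0668), the deposited table (0.0612), a trended fit (0.0902) and normexp (-0.40, 0.125). Pdgfra, the receptor for PDGF-A, fell by 0.96 (SE 0.16, limma adjusted p = 0.0304), but only 1 of 6 mimic and 3 of 4 scrambled files were above background. In the value table the authors deposited it stood at 1.28 (limma adjusted p = 0.655). That table gives a value for 20540 to 23874 probes per file, and arrays without a value were left out. The 1.28 may therefore rest on fewer than 5 arrays and is no evidence of a rise. Pdgfra was not called with normexp (-0.38, limma adjusted p = 0.131) or the scan block (limma adjusted p = 0.0759).

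**Figure D3:**
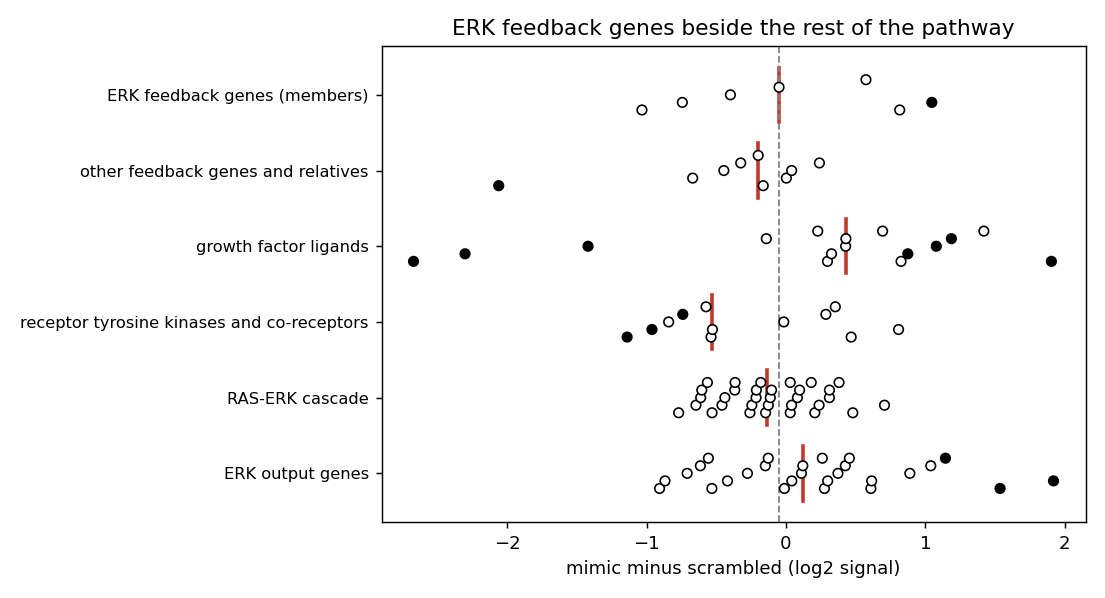
Differences (mimic minus scrambled sequence, log2) of the tested genes in the members' families and the 5 pathway lists. Each point is a gene, filled where limma called it, the red bar is the median of a list and the dashed line the median of all genes (-0.05). Etv4 is the filled point among the members, ligands lie on both sides, and the filled receptors are all below 0.

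Markers of muscle state and cell division differed between the same arrays as the members. Of 14 tested markers of differentiated muscle 10 fell (71.4% called, beside 5.15% of all genes). The mean level of the 14 was 1.10 and 1.16 on the scrambled arrays and -0.25, -0.20 and -0.88 on the mimic arrays. The mean of mimic array 3 includes Ckm at -6.27 and Myh8 at -5.24. Each was above background in 4 of 6 mimic files, and neither was called. Myl1 lay above 0, at 0.18 (limma adjusted p = 0.779). Myog, which commits myoblasts to differentiate, fell by 2.10 (SE 0.21, limma adjusted p = 0.0092). Of 10 cell cycle genes 4 rose (40% called, beside 5.15% of all genes). The mean level of the 10 was -1.20 and -1.14 on the scrambled arrays and -0.56 on each mimic array. Ccna2, the cyclin of DNA replication, rose by 0.94 (SE 0.15, limma adjusted p = 0.0281). Of the 10 differences 8 were above 0, while those of Mcm2 (-0.12) and Mcm5 (-0.36), neither called, were below it. Of 8 markers of myoblast identity 7 were tested and 0 called by limma, with 5 of 7 at an unadjusted p under 0.05, beside 25.3% of all genes. Myod1, the factor that defines myoblasts, differed by -1.26 (limma adjusted p = 0.0802). The part of these shifts in the members' differences was not tested. Many markers of other cells were dim: all 6 for adipocytes, 3 of 4 endothelial, 4 of 6 leukocyte, 3 of 4 neural and 2 of 6 fibroblast or smooth muscle markers were above background in no file. The 4 fibroblast and smooth muscle markers tested had mean levels of -0.24 and -0.30 on the scrambled arrays and -0.77, -0.82 and -0.86 on the mimic arrays. Of these 2 fell, Pdgfra (above) and Tagln, which binds actin in smooth muscle cells, by 1.01 (SE 0.15, limma adjusted p = 0.0210). The other two, not called, were the bright Acta2, smooth muscle actin, at -0.71 (limma adjusted p = 0.0671), and Dcn, a matrix proteoglycan of fibroblasts, at 0.48 (limma adjusted p = 0.194). Tubb3, the neural marker tested, fell by 0.75 (SE 0.13, limma adjusted p = 0.0385). Their part in the members' differences was not tested either.

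The genes with the array pattern closest to a member were found by the root-mean-square difference of centred log2 levels over the 5 arrays, among 10146 tested genes with a symbol. For Spry2 these were Sbno2 (0.0776), Mrc2 (0.0786) and Ncstn (0.103). For Spred1 they were Tmem33 (0.0304), Pde3b (0.0378) and Ntan1 (0.0423). For Dusp6 they were Zfp653 (0.0548), Ift81 (0.0776) and Cntf (0.116), and for Etv5 Shisa5 (0.0280), Ralgapa2 (0.0367) and Tagap (0.0371).

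**Figure D4:**
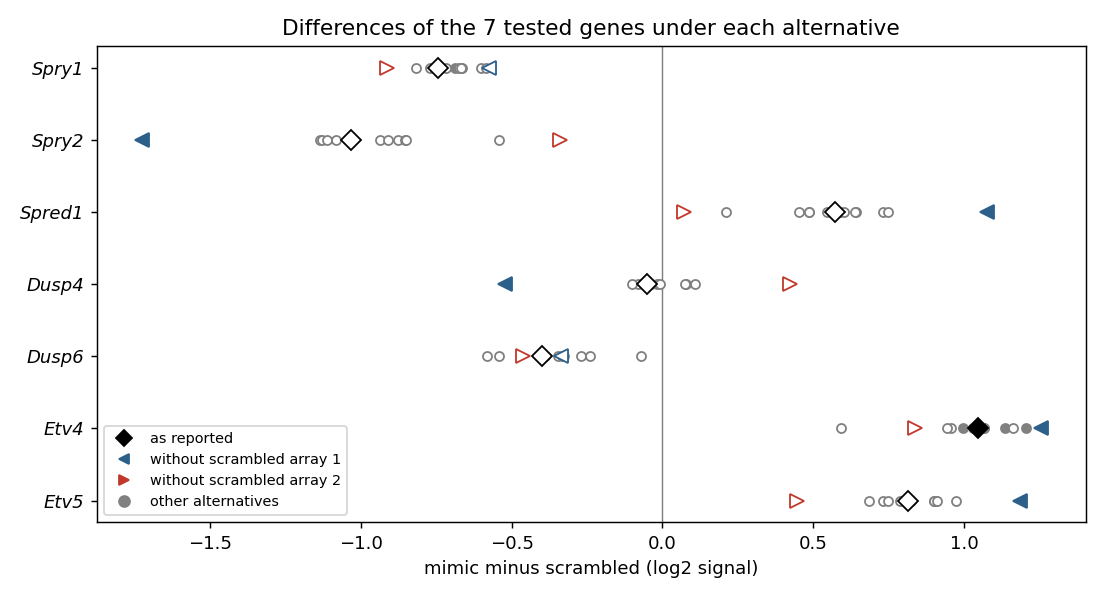
Difference (log2) of each tested member as reported (black diamond), without scrambled array 1 (blue left triangle), without scrambled array 2 (red right triangle) and under the other alternatives (grey circles), filled where the adjusted p was under 0.05. The triangles lie on either side of 0 for Dusp4 (-0.52 and 0.42), while those of Spry2 (-1.73 and -0.34) and Etv5 (1.19 and 0.45) keep their sign.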

How the data were processed

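Gene expression was measured on 1-colour (Cy3) Agilent whole-genome arrays. The deposited scanner files hold linear spot intensity, which Agilent Feature Extraction 12.0.0.7 had background-subtracted and detrended, with mm9 probe positions, per the file headers. Version 10.7.3.1 is named in the submitters' processing notes. The value table the authors deposited also holds linear, uncentred intensity that ranks probes as the processed signal does (Spearman 0.9987 to 0.9994). Its column medians were 192.1, 275.6, 260, 214.7, 252.7 and 294.2 for mimic replicates 1 to 6 and 245, 244.8, 202.9 and 214.9 for scrambled replicates 1 to 4, and it served as an alternative.

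From the processed intensity, log2 was taken after control and outlier spots (157 to 270 per file) were left out, spots of a probe were averaged, and the 75th percentile of each file, taken over 13029 probes that all 10 files had well above background, was subtracted. The percentile is over detected probes because at most 35.3% of spots were detected. Files of a position were averaged. An array with a marked spot in 1 scan took its value from the other scan. Probes well above background in at least 4 files were kept (16786), and each gene was represented by its brightest probe. Of 13188 such genes, 50 lacked a value on an array and were not tested. Probes were named by accession (28026) or symbol in RefSeq (GRCm38.p6), and otherwise by the file.

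The comparison used limma 3.58.1 under R 4.3.3 (3 residual and 2.93 prior degrees of freedom) over 13138 genes, with Benjamini-Hochberg adjustment and a threshold of 0.05. Tested on simulated data of the same 13138 genes, this comparison called 62% of 100 genes changed by 1 and 97% of 100 changed by 2 (log2).

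Members and lists were chosen with earlier results of these data known. Named genes are all members, up to 3 called genes with the largest difference per pathway list (or the smallest adjusted p where none was called), Myog, Ccna2, and the 3 genes closest to Spry2, Spred1, Dusp6 and Etv5. Dusp1, Etv1, Mapk3, Egr1, Myod1, Bdnf, Kitl, Pdgfa, Hgf, Ckm, Myh8, Myl1, Mcm2, Mcm5, Tagln, Acta2, Dcn, Tubb3, Dusp27 and Etv6 were added after their values were seen. Some genes that this rule names are not reported here. Scalings, background correction, filters, probe rules, scans, blocks and each array left out were tried as alternatives.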

Additional observations from a re-analysis of the deposited data

How the results depend on the processing

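The number of called genes, 676, was 4525 with the 10 files as separate arrays, 1943 with those files and the replicate number as a block, 1463 with the scan block, and 17 with no filter on dim probes. It ran from 47 to 4350 with 1 array left out (47, 79 and 138 for mimic arrays 1, 2 and 3, and 4350 and 570 for scrambled arrays 1 and 2). With the percentile over all probes, which moved the median difference of all genes to 0.11, 234 were lower and 503 higher, against 308 and 368. The pathway lists held 14 calls, and 2 to 46 with 1 array left out (2, 3 and 5 without a mimic array, 46 and 14 without scrambled array 1 or 2). Where 1 scrambled array is left out, the lone array is assumed to vary like the mimic arrays.

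The fits with 10 files and with the replicate block count the 2 scans of an array as separate samples, so their calls are no added support. Calls of the scan block are not either, as its degrees of freedom are counted over the 10 files. Spry1 was called at -0.74 with 10 files, -0.69 with the replicate block and -0.74 with the scan block, and ran from -0.91 to -0.57 with 1 array left out. Spry2 was called at -1.03 with 10 files and ran from -1.73 to -0.34; with only probes above background in all files it was not tested. Spred1 ran from 0.071 to 1.08 and Dusp6 from -0.58 to -0.07. Dusp4 turned to 0.11 with the percentile over all probes, to 0.079 with quantile normalization and to 0.076 in the deposited table, and ran from -0.52 to 0.42. Etv4 was not called in the second scan (0.96), with no filter (1.05), as the mean over its probes (0.59) or with every probe tested (1.05), and ran from 0.84 to 1.25. Etv5 was called at 0.82 with 10 files and at 0.82 with the scan block, and ran from 0.45 to 1.19. The causes were not tested.

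The replicate numbers do not pair the samples: deviations of same-numbered files correlated at 0.38, -0.04, -0.35 and -0.10 for numbers 1 to 4. With the number as a block Etv4 stayed called (1.05, limma adjusted p = 0.0278) and Spry2 (-1.13, adjusted p = 0.0953) and Etv5 (0.82, adjusted p = 0.0617) stayed uncalled. Signal over background limits Spry2, Spry4, Spred2 and Dusp5.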

Other observations

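Beyond the members, every gene named Dusp or belonging to the ETS family was looked up after the values were seen. Of 24 Dusp genes with a probe 17 were tested, 0 rose and 2 fell, beside 2.80% and 2.34% of all genes. Their median difference was -0.32, beside -0.05 over all genes, and 12 of 17 were below 0. Of the 2 that fell, 1 was Dusp2, described above. The other was Dusp27, a muscle gene of the same family, which fell by 1.46 (SE 0.20, limma adjusted p = 0.0186), with 3 of 6 mimic files above background. It stood at -0.82 with normexp and was not called in the first scan alone (limma adjusted p = 0.0655). Of 24 ETS genes with a probe 14 were tested. Beside 5.15% of all genes called, 1 of these 14 was called, Etv4. Their median was 0.01, with 7 above 0 and 7 below, and the largest difference below 0 was that of Etv6, a repressor of the family, at -0.98 (limma adjusted p = 0.0902).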
